A study of Mus musculus with 14 samples.

Results

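The *Zscan4* family and other genes listed with the 2-cell-like state were followed through mTOR inhibition (mTORi) in mouse embryonic stem (ES) cells. The members were 10 genes taken by name, *Zscan4a*, *Zscan4b*, *Zscan4c*, *Zscan4d*, *Zscan4e*, *Zscan4f*, *Zfp352*, *Tcstv1*, *Tcstv3* and *Eif1a*, out of 54446 gene identifiers. All 10 were present in the files, and 9 passed the filter for testing, which asked that the mean over the libraries reach 1 spike-in normalized TPM. *Tcstv1* did not pass it. Bulk RNA-seq of 14 libraries covered E14 ES cells, a feeder-free mouse line grown in serum and LIF, in 7 groups of 2 replicates. Of these, 8 libraries were wild type, without mTORi (0 h) or after 24, 72 and 144 h of the mTOR inhibitor Ink128. The other 6 were *Tet1/2* DKO cells, an E14 line in which both genes for the TET1 and TET2 methylcytosine dioxygenases had been targeted with Cas9 and which was grown from sorted single cells, at 0, 24 and 72 h. All groups shared the parental line, the medium and the sorting of live cells before RNA extraction, and DKO cells at 144 h were not analysed here.

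ES cell cultures hold a small and changing fraction of cells that switch on genes of the 2-cell embryo, the stage at which the mouse zygotic genome is activated. *Zscan4* genes encode proteins with a SCAN domain and zinc fingers, are switched on in bursts, and are known for telomere elongation and genome stability in ES cells. DUX, encoded by *Duxf3*, acts upstream of many of these genes, DPPA2 and DPPA4 act upstream of *Duxf3*, and chromatin factors such as the CAF-1 complex hold the programme down. In bulk libraries a fall in these RNAs cannot be told apart between fewer 2-cell-like cells and less RNA in each.

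The 6 *Zscan4* members lie on chromosome 7 of mm10, between positions 10794242 and 11614112 together with the pseudogenes *Zscan4-ps1*, *Zscan4-ps2* and *Zscan4-ps3*. *Zscan4a* (10794242 to 10799057), *Zscan4b* (10900740 to 10905050), *Zscan4d* (11161374 to 11166159) and *Zscan4e* (11306378 to 11310682) are on the minus strand. *Zscan4c* (11005745 to 11010547) and *Zscan4f* (11397915 to 11402318) are on the plus strand. GENCODE lists *Zscan4a* as an unprocessed pseudogene and *Zscan4b* to *Zscan4f* as protein coding, whereas RefSeq lists *Zscan4e* as a pseudogene as well. The 3 loci named as pseudogenes are pseudogenes in RefSeq too, but GENCODE lists them as protein coding. Each *Zscan4* gene has 4 exons in its longest transcript, and none overlaps another gene. *Zfp352*, a zinc finger gene, lies on chromosome 4 (90218820 to 90225702, plus strand). *Tcstv1* (119893388 to 119894785, minus strand) and *Tcstv3* (120316878 to 120318178, plus strand), named for their variable expression at the 2-cell stage, lie on chromosome 13. *Eif1a* encodes a translation initiation factor.

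Sequence before the annotated start was held for 5 of the 10 members. The 250 bases upstream of the RefSeq start (GRCm38.p6) are shown. The *Zscan4* windows are nearly alike, and that of *Zfp352* differs from them. *Zfp352* RNA was low and did not pass the test in any comparison with all libraries. Its level still followed the summed *Zscan4* over the 14 libraries, with a Pearson's r of 0.856. A link between these sequences and the RNA levels was not tested. Capitals mark TATAAA, and TGATTNAAT, letters that resemble part of the site described for DUX and that were chosen after the sequences had been seen. Both were searched on both strands, and they overlap nowhere in these windows.
Zscan4b (chr7:10905051-10905300, minus strand): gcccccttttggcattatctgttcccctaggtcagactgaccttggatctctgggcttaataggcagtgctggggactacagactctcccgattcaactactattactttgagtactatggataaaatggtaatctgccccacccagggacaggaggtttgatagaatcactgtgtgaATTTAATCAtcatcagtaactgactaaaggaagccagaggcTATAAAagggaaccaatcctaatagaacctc
Zscan4c (chr7:11005495-11005744, plus strand): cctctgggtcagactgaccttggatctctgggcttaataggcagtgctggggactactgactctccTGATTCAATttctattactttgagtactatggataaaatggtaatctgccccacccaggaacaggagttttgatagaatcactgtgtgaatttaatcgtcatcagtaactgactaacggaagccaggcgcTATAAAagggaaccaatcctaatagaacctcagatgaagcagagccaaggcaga
Zscan4d (chr7:11166149-11166398, minus strand): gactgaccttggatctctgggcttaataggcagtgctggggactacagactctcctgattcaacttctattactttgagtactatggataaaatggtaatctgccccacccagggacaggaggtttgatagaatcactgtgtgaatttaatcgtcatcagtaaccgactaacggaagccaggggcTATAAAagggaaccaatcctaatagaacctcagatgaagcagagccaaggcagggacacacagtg
Zscan4f (chr7:11397665-11397914, plus strand): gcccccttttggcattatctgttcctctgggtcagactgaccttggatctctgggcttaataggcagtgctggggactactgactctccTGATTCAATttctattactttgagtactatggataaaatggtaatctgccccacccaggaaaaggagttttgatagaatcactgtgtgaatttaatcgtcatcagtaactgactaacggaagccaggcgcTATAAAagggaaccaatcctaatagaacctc
Zfp352 (chr4:90218570-90218819, plus strand): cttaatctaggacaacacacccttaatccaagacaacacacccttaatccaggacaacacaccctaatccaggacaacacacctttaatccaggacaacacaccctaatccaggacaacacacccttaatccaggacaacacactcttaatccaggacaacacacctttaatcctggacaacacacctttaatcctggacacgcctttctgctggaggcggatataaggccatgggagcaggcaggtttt

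All 4 *Zscan4* windows hold TATAAA, which 12.4% of 32851 RefSeq promoter windows of the same length hold. Its first base is 31 bases before the start in *Zscan4b* and *Zscan4f*, 54 in *Zscan4c* and 65 in *Zscan4d*. TGATTNAAT occurs in *Zscan4b*, *Zscan4c* and *Zscan4f*, and in 0.658% of all windows. That share tests nothing here, since the letters were chosen from these windows, which are near copies of each other. In *Zscan4c* and *Zscan4f* the match reads in the printed direction, with its first base 184 and 161 bases before the start. In *Zscan4b* it is another site, on the opposite strand and 72 bases before the start. Over the aligned part, identity was 99.6% between *Zscan4c* and *Zscan4f*, 97.5% between *Zscan4c* and *Zscan4d*, and 94.7% between *Zscan4b* and *Zscan4c*. The *Zfp352* window, largely a repeated stretch, holds neither set of letters.

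The transcripts are alike too, so reads are shared between copies. Of all 100-base windows of the longest transcript, 89.5% in *Zscan4f*, 84.1% in *Zscan4e*, 78.7% in *Zscan4b*, 72.8% in *Zscan4c*, 39.1% in *Zscan4a* and 29.6% in *Zscan4d* also occur at another *Zscan4* locus. *Zscan4b* and *Zscan4e* resemble each other most, and *Zscan4f* shares most with *Zscan4-ps2* and *Zscan4c*. How the authors' quantification divided such reads sets the level of each copy, so the 6 levels are uncertain one by one and are not 6 independent measurements. *Zscan4d* and *Zscan4a* rest on the most sequence of their own, at 70.4% and 60.9%. By contrast, windows shared with another gene made up 7.79% in *Tcstv3* and 0.643% in *Zfp352*, and *Eif1a* had none.

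Each copy took a near constant share of the family in all 14 libraries. The share of the TPM summed over the 9 *Zscan4* loci ran from 17.7% to 22.8% for *Zscan4f*, from 13.7% to 17.4% for *Zscan4c* and from 13.6% to 16.4% for *Zscan4e*. *Zscan4a* held 7.11% to 11.3%, *Zscan4b* 7.78% to 10.1% and *Zscan4d* 5.91% to 8.90%. The pseudogenes *Zscan4-ps2*, *Zscan4-ps3* and *Zscan4-ps1* held 11.9% to 13.6%, 6.12% to 8.66% and 2.96% to 4.76%.

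**Figure D1:**
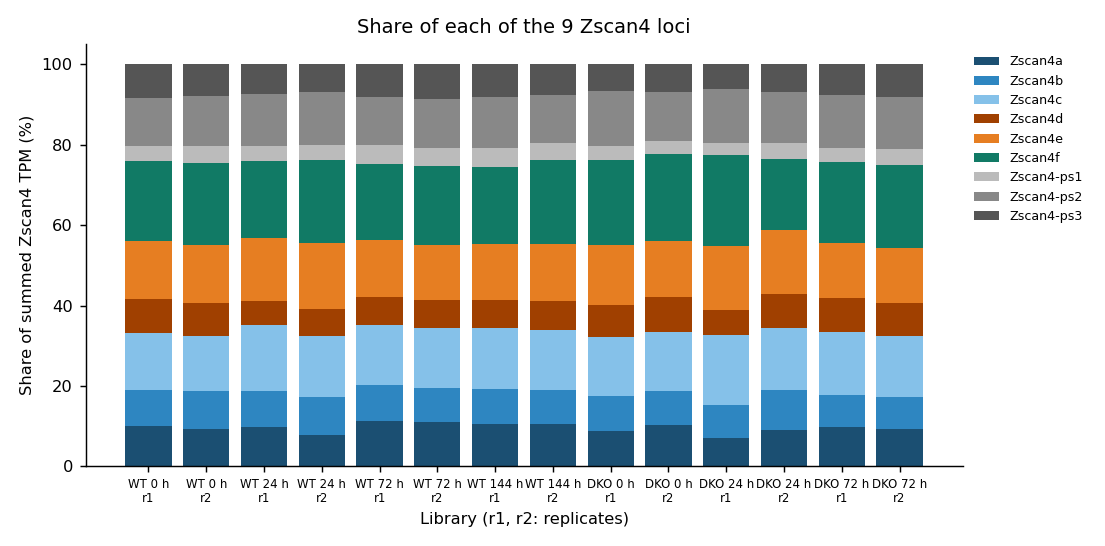
Share (%, vertical axis) of each of the 9 *Zscan4* loci in their summed TPM, stacked, for each of the 14 libraries (horizontal axis, with genotype, hours of mTORi and replicate). The bands keep nearly the same height in every library, with *Zscan4f* the widest at 17.7% to 22.8%.

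Levels are given in spike-in normalized TPM, the deposited TPM (length-scaled abundance) multiplied by 1 factor per library that the study derived from added ERCC RNAs, so that less RNA per cell lowers the values. Under this scale the median gene fell by 0.33 on the log2 scale in wild type at 24 h, by 0.33 at 72 h and by 0.83 at 144 h, and in DKO by 0.49 at 24 h and 0.12 at 72 h. The factors lay between 1.0 and 2.81. The ES cell markers *Pou5f1*, *Sox2*, *Nanog*, *Zfp42* and *Esrrb* were present in all libraries and summed to between 2530 and 6440 TPM. *Tet2* was lower in the DKO libraries, at 27.1 to 55.0 TPM against 129 to 210 in wild type. *Tet1* RNA was not, at 238 to 602 against 344 to 516 TPM, so the RNA level of *Tet1* did not mark the DKO libraries. Replicates are separate samples of a group by their labels. With 2 libraries a group, replicates differed up to 3.60-fold in *Zscan4f*.

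Summed over *Zscan4a* to *Zscan4f*, wild-type cells without mTORi held 243 and 486 TPM. After 24 h of mTORi they held 66.6 and 111 TPM, after 72 h 344 and 256 TPM, and after 144 h 308 and 148 TPM. Both 24 h libraries lay below all other wild-type libraries, while the 72 h and 144 h libraries overlapped those at 0 h. The DKO cells held 253 and 105 TPM at 0 h, 37.1 and 13.1 TPM at 24 h, and 411 and 437 TPM at 72 h. In DKO the 3 times did not overlap, with the lowest levels of the series at 24 h and levels at 72 h that only 1 wild-type library, at 0 h, exceeded. By group means the order from high to low was DKO 72 h (424 ± 18.8, SD, n = 2), wild type 0 h (365 ± 172), wild type 72 h (300 ± 62.0), wild type 144 h (228 ± 113), DKO 0 h (179 ± 105), wild type 24 h (89.0 ± 31.7) and DKO 24 h (25.1 ± 16.96). Down to wild type 24 h, neighbours in this order differed by less than the larger SD of each pair. The last step, from wild type 24 h to DKO 24 h, was larger than both SDs. The order depended on the spike-in factors. In the deposited TPM wild type 144 h came first (218 ± 98.9), then DKO 72 h (208 ± 64.4), wild type 72 h (189.9 ± 25.6) and wild type 0 h (173 ± 81.3), followed by DKO 0 h (67.2 ± 32.3), wild type 24 h (53.3 ± 9.66) and DKO 24 h (13.1 ± 4.91).

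**Figure D2:**
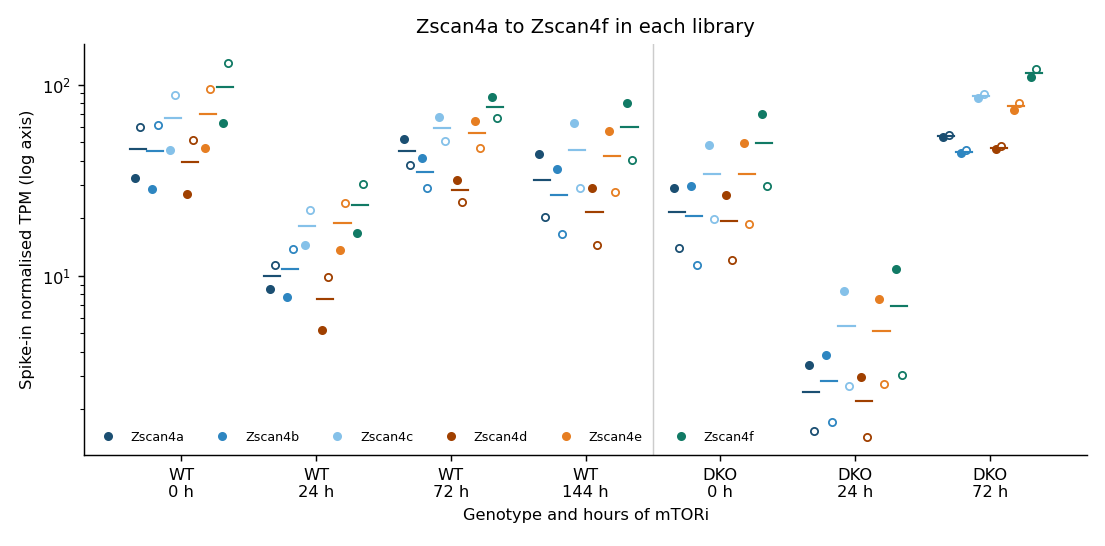
Spike-in normalized TPM (vertical log axis) of *Zscan4a* to *Zscan4f* by genotype and hours of mTORi (horizontal axis), with replicate 1 as filled and replicate 2 as open circles and the mean as a bar. All 6 genes were lowest at 24 h in both genotypes, down to 1.44 TPM for *Zscan4d* in DKO, and the 2 DKO libraries at 72 h nearly coincide on this scale (*Zscan4f* 109 and 121 TPM), whereas in the deposited TPM they were at 43.1 and 70.1.

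The first comparison asked what 24 h of mTORi did in wild-type cells. *Zscan4f*, the most abundant copy, was at 63.2 and 130 TPM at 0 h and at 16.8 and 30.2 TPM at 24 h. *Zscan4d*, with the most sequence of its own, was at 26.7 and 51.6 TPM and then at 5.18 and 9.89 TPM. For both, each library at 24 h lay below each at 0 h. All 6 *Zscan4* members fell, by between 1.77 and 2.22 on the log2(TPM + 1) scale (limma, adjusted p between 0.00344 and 0.0202). *Zscan4d* fell by 2.22 ± 0.43 (SE) and *Zscan4f* by 1.96 ± 0.48. The 3 *Zscan4* pseudogenes fell as well, by 1.82 to 2.08. In all, 6 of 9 members tested were called lower, against 8.73% of the 18232 genes tested, where the 6 share reads and do not count as 6 findings. All 6 were also called lower in the deposited TPM, which carry no spike-in factor, with a *Zscan4f* difference of −1.57, where 14.1% of all genes were. The calls depended on single libraries, since without wild-type 0 h replicate 2, the highest library of the family, none of the members was called (*Zscan4d* −1.75, adjusted p = 0.0686) and without 24 h replicate 1 only *Zscan4a* was. With no filter on low values none was called either (*Zscan4d*, adjusted p = 0.0572).

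*Tcstv3* went from 3.64 and 8.45 TPM to 1.11 and 1.66 TPM, with no overlap. Its difference of −1.48 ± 0.50 had an adjusted p of 0.0619, and of 0.0112 with replicates paired as a block, a setting in which 25.7% of all genes were called lower. *Zfp352* was low, at 1.08 and 4.31 TPM at 0 h and 0.616 and 1.66 TPM at 24 h, and its libraries overlapped (−0.68 ± 0.42). *Eif1a* went from 264 and 330 TPM to 180 and 256 TPM, a difference of −0.45 ± 0.30 that did not pass the test and lay near the median of all genes. *Tcstv1* was listed at 0.333 and 0.850 TPM and then at 0.00428 and 0.0891 TPM.

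Markers of other cell types moved in the same comparison. Primitive endoderm markers (*Gata4*, *Gata6*, *Sox17*, *Sox7* and *Pdgfra*, all 5 above 0) summed to 16.6 and 43.9 TPM at 0 h and to 87.2 and 209 TPM at 24 h in wild type, and 3 of 5 were called higher, against 1.25% of all genes. In DKO they ranged from 19.2 to 65.6 TPM at 0 h and from 22.3 to 106 TPM at 24 h, with 0 of 5 called (5 of 5 higher in value). Trophectoderm markers (5, of which 4 were tested) summed to 60.5 to 63.0 TPM and then 75.3 to 184 TPM in wild type. Of 4 fibroblast markers only *Thy1* passed the filter, and the list summed to 11.99 to 17.3 TPM at 0 h and 2.37 to 4.06 TPM at 24 h in wild type, and to 29.5 to 41.97 and 5.99 to 10.02 TPM in DKO. *Thy1* was called lower at 24 h in wild type (−1.89 ± 0.38, adjusted p = 0.00439) and in DKO (−2.05 ± 0.38, adjusted p = 0.00161). *Col1a1*, *Col1a2* and *Postn*, the defining fibroblast genes, had means of 0.527, 0.225 and 0.0287 TPM. The part of these cell types in the *Zscan4* values was not tested.

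At 72 and 144 h in wild type, the *Zscan4* family did not differ from 0 h beyond the spread of its libraries. *Zscan4f* measured 86.2 and 67.2 TPM after 72 h, then 79.8 and 40.5 TPM after 144 h, overlapping the range at 0 h. The differences of the 6 genes lay between −0.40 and 0.0031 at 72 h and between −0.83 and −0.55 at 144 h, where the median gene stood at −0.33 and −0.83. None was called in either comparison. In the deposited TPM the sign turned for 5 of the 6 at 72 h (*Zscan4a* was already at 0.0031) and for all 6 at 144 h, and they were between 0.0079 and 0.41 higher at 72 h and between 0.15 and 0.44 higher at 144 h, with no call. *Zscan4d* at 144 h was called lower with the replicate block (adjusted p = 0.0425), as were 66.3% of all genes. At 72 h 0 of 9 members were called, against 8.29% of all genes. With DKO 24 h replicate 1 or 2 left out, the count moved through *Eif1a* alone, with a difference of −0.84, and not through a *Zscan4* gene.

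*Eif1a* took another course. It was at 168 and 161 TPM at 72 h and at 99.2 and 96.9 TPM at 144 h, below both 0 h libraries each time. At 144 h it fell by 1.58 ± 0.30 (adjusted p = 6.7e-04), and it was the 1 of 9 members called lower, against 50.5% of all genes. Without wild-type 0 h replicate 1, 2 members were called. *Eif1a* was called lower in the deposited TPM also, by 0.56, as were 11.7% of all genes. At 72 h its difference of −0.84 ± 0.30 missed the threshold (adjusted p = 0.0849) and passed it with the replicate block (adjusted p = 0.00897) and in the deposited TPM (−0.41, adjusted p = 0.0213), where 25.4% and 11.4% of all genes were called lower. *Tcstv3*, at 5.20 and 1.95 TPM at 72 h and 4.52 and 2.18 TPM at 144 h, and *Zfp352*, at 2.12 and 1.58 TPM and then 1.61 and 0.930 TPM, overlapped their 0 h libraries. *Tcstv1* was listed at 0.407 and 0.149 TPM at 72 h and at 0.724 and 0.111 TPM at 144 h.

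**Figure D3:**
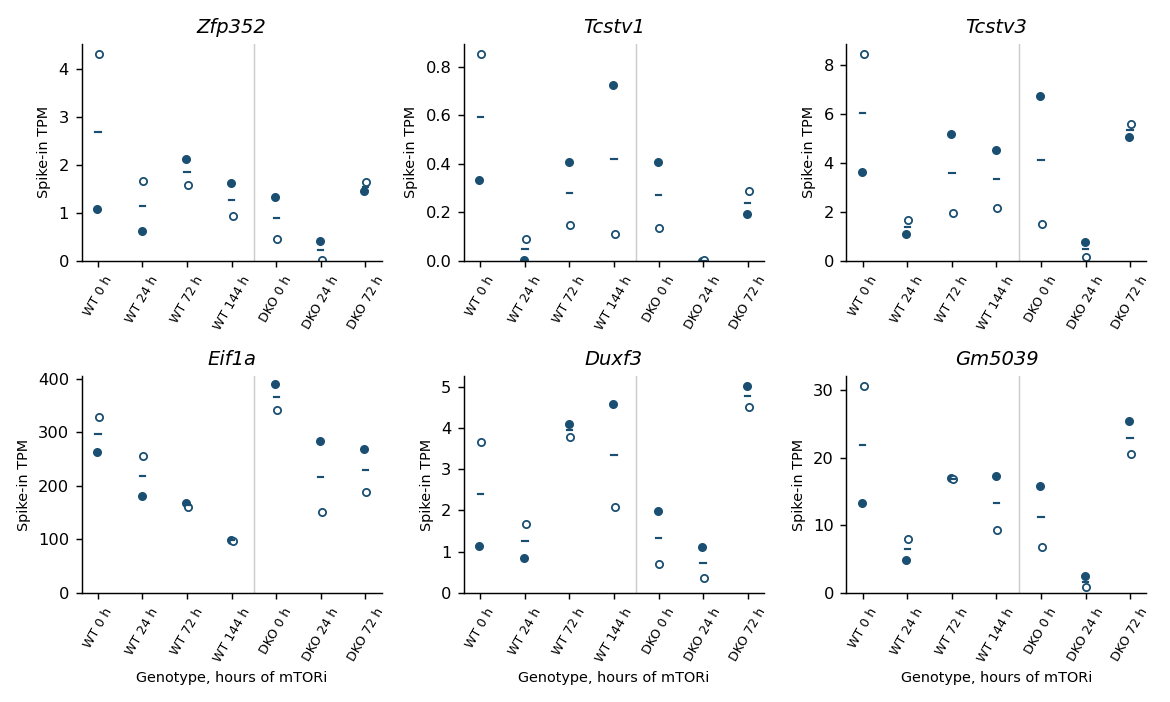
Spike-in normalized TPM (vertical axes from 0, each panel with its own scale) of *Zfp352*, *Tcstv1*, *Tcstv3*, *Eif1a*, *Duxf3* and *Gm5039* by genotype and hours of mTORi (horizontal axes), with replicate 1 filled, replicate 2 open and the mean as a bar. *Gm5039* and *Tcstv3* were lowest at 24 h in both genotypes, whereas *Eif1a* fell from about 297 to 98.05 TPM over the wild-type course.

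In *Tet1/2* DKO cells the same early fall was seen. *Zscan4f* went from 70.2 and 29.4 TPM at 0 h to 10.9 and 3.03 TPM at 24 h. *Zscan4d* went from 26.6 and 12.1 TPM to 2.96 and 1.44 TPM. No 24 h library reached a 0 h library in either gene. All 6 *Zscan4* members fell, by 2.42 to 2.75 on the log2 scale (limma, adjusted p between 4.4e-04 and 0.00198), with *Zscan4f* the most at 2.75 ± 0.48. *Tcstv3* fell from 6.75 and 1.52 TPM to 0.785 and 0.159 TPM (−1.62 ± 0.50, adjusted p = 0.0281), a call that was lost in the deposited TPM (−0.94, adjusted p = 0.134), where 13.3% of all genes were called lower. It was also lost with median-centred values (−1.16, adjusted p = 0.109) and with no filter on low values (adjusted p = 0.169). Without DKO 0 h replicate 1 the *Tcstv3* difference was −0.81. In all, 7 of 9 members were called lower, against 18.7% of all genes. With each library left out in turn, 6 to 8 members were called, and with no filter on low values the 6 *Zscan4* genes were. *Zfp352*, at 1.34 and 0.449 TPM and then 0.417 and 0.0235 TPM, did not pass the test (−0.61 ± 0.42). *Eif1a* went from 391 and 341 TPM to 284 and 151 TPM (−0.82 ± 0.30, adjusted p = 0.0614, and 0.00681 with the replicate block, under which 38.1% of all genes were called lower). *Tcstv1* was listed at 0.407 and 0.133 TPM at 0 h, and at 0 and 0.00157 TPM at 24 h.

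At 72 h of mTORi the DKO cells stood above their own starting level. *Zscan4f* was at 109 and 121 TPM, against 70.2 and 29.4 TPM at 0 h, and *Zscan4d* at 45.9 and 47.6 TPM, against 26.6 and 12.1 TPM. Both 72 h libraries exceeded both 0 h libraries in 7 of 9 members (the 6 *Zscan4* genes and *Zfp352*), as they did in 15.7% of all genes tested. The differences of the *Zscan4* genes were 1.22 to 1.45 on the log2 scale, while the median gene stood at −0.12. The adjusted p lay between 0.0701 and 0.144, so 0 members were called higher (limma), against 0.713% of all genes, although all 6 had an unadjusted p of at most 0.0160. With the replicates paired as a block, all 6 were called higher (adjusted p between 0.00855 and 0.0313), as in the deposited TPM (1.45 to 1.70, adjusted p between 0.0109 and 0.0335). Of all genes, 5.34% were called higher with the block and 17.2% in the deposited TPM. DKO 0 h replicate 1 was the higher one for all 6 *Zscan4* genes, so leaving it out raised these differences and leaving out replicate 2 lowered them. DKO 24 h replicates enter through the shared spread. Without either of them the *Zscan4f* difference stayed at 1.32 while the calls moved. The block also called *Eif1a* lower (−0.69 ± 0.22, adjusted p = 0.0347, and ± 0.30 and 0.204 without it), as were 13.2% of all genes, at 269 and 189 TPM. *Tcstv3* was at 5.08 and 5.60 TPM, within its range at 0 h, and *Zfp352* at 1.45 and 1.65 TPM. *Tcstv1* was listed at 0.191 and 0.288 TPM. The summed fibroblast markers went from 29.5 and 41.97 TPM to 12.4 and 12.8 TPM in the same comparison, and *Thy1* was called lower (−1.47 ± 0.38, adjusted p = 0.0376), as were 2.95% of all genes. The trophectoderm markers went from 55.1 and 90.5 to 34.7 and 45.1 TPM, with no overlap in 3 of 4 and none called, or 1 called lower with the block. The part of both in the *Zscan4* values was not tested.

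**Figure D4:**
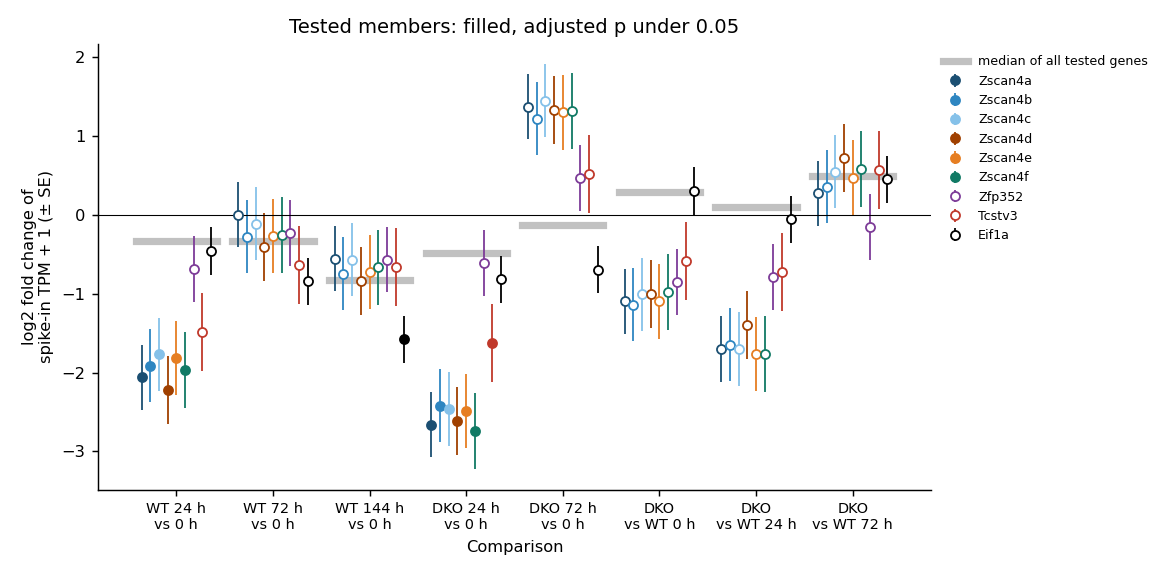
log2 fold change of spike-in TPM + 1 with its standard error (vertical axis) of the 9 tested members in 8 comparisons (horizontal axis), filled where the adjusted p was under 0.05, with the median of all 18232 tested genes as a grey bar. The 6 *Zscan4* genes lie together in every comparison, far below the grey bar at 24 h in both genotypes. At 72 h against 0 h all 6 lie well above it in DKO, at 1.22 to 1.45 and with no point filled, and near it in wild type, between −0.40 and 0.0031.

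Between 24 and 72 h the level came back in both genotypes. These comparisons were added after the levels had been seen. In DKO all 6 *Zscan4* genes rose, by 3.64 to 4.07 on the log2 scale (adjusted p between 7.7e-05 and 2.5e-04), and the sum of the 6 rose 18.3-fold on the log2(TPM + 1) scale. *Tcstv3* rose by 2.14 ± 0.50 (adjusted p = 0.0322), a call lost in the deposited TPM (adjusted p = 0.0596). It was also lost with median-centred values (adjusted p = 0.0706), with a replicate block across all libraries (0.0558) and with no filter on low values (0.193). Without DKO 24 h replicate 2 the *Tcstv3* difference was 1.83. In all, 7 of 9 members were called higher, against 1.32% of all genes. With no filter on low values 3 of the members were called, *Zscan4a*, *Zscan4c* and *Zscan4d*. In wild type the sum rose 3.42-fold, and the 6 genes were 1.55 to 2.06 higher. Of these *Zscan4a* (2.06 ± 0.41, adjusted p = 0.0193) and *Zscan4d* (1.81 ± 0.43, adjusted p = 0.0473) were called, 2 of 9 members against 0.428% of all genes. All 6 were called with the replicate block and in the deposited TPM, where 3.2% and 5.33% of all genes were called higher. None was called without wild-type 24 h replicate 1, without 72 h replicate 1 or without 72 h replicate 2, nor with no filter on low values. Through the shared spread, leaving out a DKO library moved the count too, to 5 for either replicate at 0 h, 6 for either at 24 h and 1 for either at 72 h. Markers of other cell types moved here as well. The summed primitive endoderm markers were at 9.39 and 30.5 TPM in wild type at 72 h (median −2.62, 3 of 5 called lower against 24 h) and the trophectoderm markers at 28.6 and 31.6 TPM (2 of 4 called lower), where 0.559% of all genes were called lower. In DKO they were at 19.8 to 55.4 and 34.7 to 45.1 TPM, with none called. The part of these cell types in the *Zscan4* values was not tested.

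The DKO and wild-type cells were then compared at each time. At 0 h the 6 *Zscan4* genes were 0.98 to 1.14 lower in DKO on the log2 scale, where the median gene was 0.29 higher. Of the 9 members, only *Zscan4a* and *Zscan4d* had each DKO library under each wild-type one, *Zscan4d* at 26.6 against 26.7 TPM at the closest, as did 4.39% of all genes, and wild-type replicate 1 (*Zscan4f* 63.2 TPM) lay below DKO replicate 1 (70.2 TPM). Of 9 members 0 were called, against 0.0439% of all genes. At 24 h the *Zscan4* genes were 1.40 to 1.77 lower in DKO, and each DKO library was under each wild-type library in 8 of 9 members, all but *Eif1a*, as they did in 5.44% of all genes. Unadjusted p values of the 6 were between 5.3e-04 and 0.00399, yet none passed after adjustment over all genes (adjusted p between 0.216 and 0.516), where 0.0439% of all genes did. Primitive endoderm markers were lower in DKO at 24 h as well, in 5 of 5 by value (median −1.42), with no overlap in 3 and 0 called. *Thy1* was higher in DKO by value at 0, 24 and 72 h (1.30, 1.14 and 0.995), with no overlap and no call. The part of these markers in the *Zscan4* values was not tested. Without DKO 24 h replicate 1, the *Zscan4f* difference at 24 h was −2.55. At 72 h the *Zscan4* genes were 0.28 to 0.73 higher in DKO, close to the 0.49 of the median gene, and in the deposited TPM between −0.13 and 0.32. Both DKO libraries exceeded both wild-type libraries in 7 of 9 members, but also in 62.6% of all genes, and 0 members were called, against 0.329% of all genes.

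The difference between the responses of the genotypes was tested directly. At 24 h the fall of the *Zscan4* genes was 0.39 to 0.78 larger in DKO on the log2 scale (*Zscan4f* −0.78 ± 0.68), with unadjusted p between 0.263 and 0.527. No member was called, where 0.00548% of all genes were. At 72 h the change was 1.37 to 1.73 higher in DKO (*Zscan4f* 1.57 ± 0.68, *Zscan4d* 1.73 ± 0.61), with unadjusted p between 0.00991 and 0.0337. After adjustment 0 members were called, as were 0% of all genes, so a different response at 72 h was not shown here, and standard errors of 0.59 to 0.68 allowed only large differences to be seen.

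Of the 4 upstream activators tested, 2 were called lower in wild type at 144 h, against 50.5% of all genes, and 1 in DKO at 24 h, against 18.7%. With the replicate block 1 was called lower in wild type at 24 h, 3 at 144 h and 2 in DKO at 24 h. The shares of all genes were then 25.7%, 66.3% and 38.1%. *Duxf3*, the *Dux* gene, was at 1.14 and 3.66 TPM at 0 h in wild type, 0.840 and 1.66 TPM at 24 h, 4.10 and 3.78 TPM at 72 h, and 4.58 and 2.08 TPM at 144 h. In DKO it was at 2.00 and 0.689 TPM, then 1.10 and 0.350 TPM, then 5.02 and 4.50 TPM. By group mean it was highest at 72 h in DKO, as was the sum of the 6 *Zscan4* genes, and in the deposited TPM both were highest in wild type at 144 h (*Duxf3* 3.18 against 2.30 in DKO at 72 h), but its values at 24 h overlapped those at 0 h in both genotypes. It rose between 24 and 72 h in DKO (1.77 ± 0.42, adjusted p = 0.0376) and missed the threshold against 0 h there (1.36 ± 0.42, adjusted p = 0.0793), which it passed with the block (adjusted p = 0.0119) and in the deposited TPM (1.14, adjusted p = 0.0219). In wild type at 144 h it was called higher in the deposited TPM only (0.98, adjusted p = 0.0388, and 0.39 with the spike-in factors). *Dppa2*, an activator of *Duxf3*, fell in DKO at 24 h (−0.87 ± 0.28, adjusted p = 0.0341) and in wild type at 144 h (−1.20 ± 0.28, adjusted p = 0.00246), and in the deposited TPM by only 0.30 and 0.17. *Dppa4*, its partner, was called in no comparison without the block and was called lower with it in wild type at 144 h (−0.60, adjusted p = 0.0627 without and 0.021 with it), where the deposited TPM gave 0.43. *Nelfa*, a subunit of the elongation factor NELF, fell in wild type at 144 h (−0.92 ± 0.30, adjusted p = 0.0170), where the deposited TPM gave 0.10.

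Of 29 genes listed as repressors of the 2-cell-like state, all tested, the number called lower in wild type was 2 at 24 h (*Uhrf1* and *Sumo2*), 1 at 72 h (*Ehmt2*) and 25 at 144 h, against 8.73%, 7.6% and 50.5% of all genes. In DKO it was 9 at 24 h, against 18.7%, and 0 were called higher in any of these comparisons. With the replicate block the numbers lower were 10, 10 and 27 in wild type and 15 in DKO at 24 h, against 25.7%, 25.4%, 66.3% and 38.1% of all genes. In the deposited TPM they were 6, 2 and 1 in wild type and 7 in DKO, with 4, 2, 6 and 3 called higher. The shares of all genes were then 14.1%, 11.4%, 11.7% and 13.3% lower and 15.8%, 12.6%, 15.6% and 11.6% higher. In DKO at 72 h no repressor was called, while 1 was higher and 5 lower with the block and 7 higher and 2 lower in the deposited TPM. Of all genes, 5.34% were called higher and 13.2% lower with the block, and 17.2% higher and 9.06% lower in the deposited TPM. At 144 h their median was −1.02, beside −0.83 for all genes, and in the deposited TPM −0.0018. *Chaf1a*, which encodes a subunit of CAF-1, was at 102 and 94.0 TPM at 0 h in wild type, 60.7 and 75.3 TPM at 24 h and 49.6 and 43.6 TPM at 144 h (−1.06 ± 0.28, adjusted p = 0.00586), and its difference at 144 h was −0.044 in the deposited TPM. *Chaf1b*, its partner, *Kdm1a*, a histone demethylase, and *Trim28*, a corepressor, each fell in DKO at 24 h, by 0.85, 0.94 and 0.94 (adjusted p = 0.0293, 0.0309 and 0.0309), and in the deposited TPM by 0.29, 0.37 and 0.37, where *Chaf1b* was not called. *Zmym2*, *Dnmt1*, the maintenance DNA methyltransferase, and *Lin28a*, an RNA-binding protein, were called lower in wild type at 144 h, by 0.84, 0.83 and 0.998. In the deposited TPM these 3 were at 0.16, 0.20 and 0.03.

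A wider list of 59 genes known from 2-cell-like cells was then read beside the members. Of these, 56 were in the files and 36 were tested. The genes with the highest mean levels were *Gm8332*, *Gm21761*, *Gm2016*, *Gm5662*, *Gm20767*, *Gm2022*, *Gm8994* and *Gm8300*, many of which are near copies of each other, such as *Gm8332*, where every 100-base window occurs in another gene. In wild type at 24 h all 36 were lower in value, with a median of −1.17, and 3 were called lower, a share near the 8.73% of all genes, *Gm8300* (−1.49 ± 0.47), *Gm5039* (−1.54 ± 0.45) and *Trim43b* (−2.01 ± 0.34). With the replicate block 25 were, beside 25.7% of all genes, and in the deposited TPM 2, beside 14.1%. In DKO at 24 h all 36 were lower, with a median of −1.48, and 20 were called, *Gm21761* among them, at 74.7 and 16.6 TPM at 0 h and 8.77 and 2.21 TPM at 24 h (−2.70 ± 0.61, adjusted p = 0.00521). The 20 stand beside 18.7% of all genes. In the deposited TPM 10 were, beside 13.3%.

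In DKO at 72 h, 33 of the 36 were higher in value than at 0 h, with a median of 1.02, and 0 were called higher, or 16 with the replicate block (5.34% of all genes) and 12 in the deposited TPM (17.2%). *Gm21761* was at 94.2 and 95.6 TPM (1.39 ± 0.61, adjusted p = 0.205, and 0.045 with the block). From 24 to 72 h, 25 of 36 were called higher in DKO, against 1.32% of all genes and with a median of 2.34, and 33 with the block, against 12.7%. In wild type 0 were, against 0.428% and with a median of 1.24, or 14 with the block, against 3.2%. Against wild type, 35 of 36 were lower in DKO at 0 h and 35 at 24 h (medians −0.66 and −0.87), and 32 were higher at 72 h (median 0.36, below the 0.49 of all genes), with 0 called at any time. At 72 and 144 h in wild type the medians were −0.020 and −0.34.

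*Trim43b* stayed low after 24 h. It was at 4.27 and 6.85 TPM at 0 h in wild type, 0.402 and 0.830 TPM at 24 h, 0.346 and 0.735 TPM at 72 h, and 0.142 and 0.113 TPM at 144 h. In DKO it was at 3.47 and 5.05 TPM, then 0.380 and 0.588 TPM, then 0.811 and 0.608 TPM. It was called lower at every time in both genotypes, by 1.61 to 2.51. *Trim43a*, at 0.493 and 0.677 TPM at 24 h in DKO and 1.51 and 0.547 TPM at 72 h, was called lower in wild type at 144 h (−1.54 ± 0.35), as was *Zfp750* (−1.20 ± 0.43), an epidermal transcription factor gene whose values at 24 h were close to those at 0 h.

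**Figure D5:**
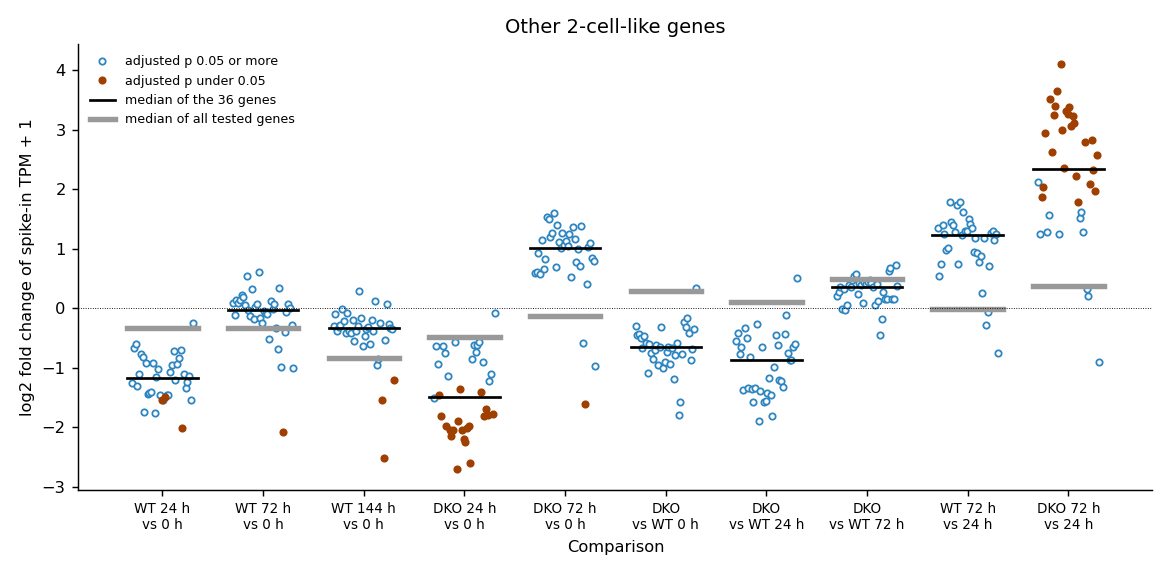
log2 fold change of spike-in TPM + 1 (vertical axis) of the 36 tested other 2-cell-like genes in 10 comparisons (horizontal axis), filled where the adjusted p was under 0.05, with the median of the list in black and of all tested genes in grey. Against 0 h, 35 of the 36 genes lie below the grey bar at 24 h in both genotypes, all but *Zfp750*, and 33 lie above it at 72 h in DKO, all but *Trim43a*, *Trim43b* and *Zfp750*.

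The genes whose levels followed the summed *Zscan4* most closely over the 14 libraries, by Pearson's r of log2(deposited TPM + 1), were *Gm5039* (0.993), *Gm2022* (0.988), *Gm21761* (0.988), *Gm4027* (0.987) and *BB287469* (0.985), leaving aside the members and the *Zscan4* pseudogenes. All 5 are in the list of 2-cell-like genes, 4 lie on chromosome 12 and *Gm21761* on chromosome 13. *Gm4027* and *BB287469* share 91.4% and 91.3% of their windows with other genes, mostly each other, and *Gm5039* only 3.81%. Of the 36 listed genes 28 had an r above 0.9, against 87 of 18232 genes in all, and the medians were 0.941 and 0.092. The 87 genes include the *Zscan4* genes themselves. The list was chosen with earlier results of these data known, and some of its genes are near copies of each other. The points share libraries, and the r describes the common course without a test. In the chromosome 7 region, 44 other genes lie between the first and the last *Zscan4* locus, 26 were above 0 in some library and 1 was tested, *Gm45551*. It was called lower at 24 h in wild type (−1.42 ± 0.44, adjusted p = 0.0467) and in DKO (−1.45 ± 0.44, adjusted p = 0.0281), as the *Zscan4* genes around it were.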

How the data were processed

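RNA-seq was analysed for 14 libraries, 2 in each of 7 groups of genotype and time of mTORi taken from the labels. The deposited values are TPM. The authors trimmed reads with cutadapt, aligned them to mm10 with STAR and quantified genes with stringtie on GENCODE VM19. The submitters' processing notes give cutadapt 2.4, STAR 2.7.3a and StringTie 2.0, and the paper's methods name other versions of STAR and StringTie. How reads shared by several loci were divided is not given in the sources used here. TPM were summed per gene identifier, and each library was multiplied by the median ratio of the study's spike-in normalized table to the deposited TPM, which was constant within a library. Each factor equals 76 divided by a whole number, to within 3.9e-06. TPM keep no read counts, so depth is unknown and no counting error is given.

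Values were fitted as log2(TPM + 1) in limma 3.58.1 (R 4.3.3, empirical Bayes with a trend) with all 7 groups in 1 model, for the 18232 genes averaging at least 1 TPM. P values were adjusted by Benjamini-Hochberg over all of them, and an adjusted p under 0.05 was called. Fold changes on this scale understate the change of low genes. The fit was tested on simulated data. Libraries with the same replicate number were assumed to pair within a genotype. The paper's reporting summary says that time points of a replicate were handled in parallel, but not which deposited numbers belong together. The correlation of the deviations of such libraries was 0.222 to 0.341 in DKO (3 pairs) and 0.0622 to 0.398 in wild type (6 pairs), and below 0 in 10 of 12 pairs between genotypes. The block was therefore fitted within each genotype, which gives no test of DKO against wild type. For the summed *Zscan4* genes in wild type, replicate 2 was the higher at 0 and 24 h and replicate 1 at 72 and 144 h. The pairing is therefore uncertain for these genes, and so are the calls that rest on the block. The p values measure the spread between the labelled replicates.

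The members and lists were chosen with earlier results of these data known, and the comparisons of 72 h with 24 h were added after the values were seen. Genes named in the text are the members, the *Zscan4* pseudogenes and tested genes between them, the 8 most abundant other 2-cell-like genes and called ones among them, listed activators and repressors, the 5 genes most like the summed *Zscan4*, and checks. *Uhrf1*, *Sumo2* and *Ehmt2* were named after their values were seen. *Dux*, *Dub1*, *Dub1a* and *Zfp353* matched no entry by name. Promoters are from RefSeq (GRCm38.p6), where 5 of the 10 members had one, and were aligned with biopython 1.88. Transcript windows and gene types are from GENCODE M21, whose *Zscan4* coordinates equal those of the files. Alternatives were the deposited TPM, median-centred values, a pseudocount of 0.1, no filter on low values, replicate blocks, each library left out, and the *Zscan4* loci summed.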

Additional observations from a re-analysis of the deposited data

How the results depend on the processing

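With 9 members tested, the counts of called members moved as follows. In the deposited TPM, 1 member was called in wild type at 72 h (*Eif1a*, lower), 7 in DKO at 72 h and 6 in wild type from 24 to 72 h, against 0, 0 and 2 with the spike-in factors. Of all 18232 genes, 4381, 4796 and 2012 were called there. Median-centred values gave 1, 7 and 7 for the same comparisons, and 1 for DKO against wild type at 24 h, against 0, with 4771, 5121, 1922 and 219 of all 18232 genes called. A pseudocount of 0.1 gave 1 in wild type from 24 to 72 h, with 189 of all genes called. No filter on low values gave 0 in wild type at 24 h, 0 in wild type from 24 to 72 h and 3 in DKO from 24 to 72 h, against 6, 2 and 7, with more genes in the adjustment. Of all genes, 1063, 40 and 92 were called there.

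With the replicate block within each genotype 1 member was called in wild type at 72 h, 2 at 144 h, 7 in DKO at 72 h (6 higher and *Eif1a* lower, as in the deposited TPM) and 6 in wild type from 24 to 72 h. At 24 h it gave 7 in wild type and 8 in DKO, against 6 and 7. In the same order, this block called 5152, 12283, 3377, 1203, 5510 and 7299 of all genes. Adding the deposited TPM to this block, chosen after seeing the data, gave 1, 1, 7 and 7 in the 4 comparisons named first. Of all genes, 5832 were then called in wild type at 72 h, 6528 in DKO at 72 h and 3220 in wild type from 24 to 72 h. A replicate block across all libraries gave 1 in wild type from 24 to 72 h, with 100 of all genes called. The block changed no call in the 2 differences of response. In the counts with a library left out, given next, the number of all genes called moved too. Those counts describe the settings and not the members.

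With each library left out in turn, the number called was 0 to 7 in wild type at 24 h, 0 to 1 at 72 h, 1 to 2 at 144 h, 6 to 8 in DKO at 24 h, 0 to 5 in DKO at 72 h, 0 to 1 in DKO against wild type at 24 h, 0 to 6 in wild type from 24 to 72 h and 6 to 8 in DKO from 24 to 72 h. It stayed at 0 in the other 4 comparisons.

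In the comparisons with 0 h, signs were followed across settings for called members, *Zscan4f*, *Zfp352*, *Tcstv3* and *Eif1a*. They turned only in differences that were not called. In wild type at 72 h, *Zscan4f* (−0.25) was at 0.17 in the deposited TPM and 0.038 median-centred, and *Zfp352* (−0.23) at 0.016 and 0.061. In wild type at 144 h, *Zscan4f* (−0.67) was at 0.35 and 0.17, *Zfp352* (−0.56) at 0.037 and 0.27, and *Tcstv3* (−0.66) at 0.14 and 0.17. The block does not alter these differences, so its values in the deposited TPM are the same. With libraries left out in turn, in wild type at 72 h *Zscan4f* ran from −0.77 to 0.26 and *Zfp352* from −0.90 to 0.45, and at 144 h *Zscan4f* ran from −1.18 to −0.15, *Tcstv3* from −1.17 to −0.15 and *Zfp352* from −1.24 to 0.11. *Tcstv3* in DKO at 72 h ran from −0.29 to 1.33. Among the genes followed, signs turned without wild-type 0 h replicate 2 and, for *Tcstv3*, without DKO 0 h replicate 2. The uncalled differences of the other *Zscan4* genes were not followed in this way. The cause was not tested. Summing the *Zscan4* loci to 1 feature gave a value with no test and no count of members.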
